A study of Mus musculus with 32 samples.

Results

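Of the 5163 cDNA spots on a mouse array hybridised with prefrontal cortex RNA, 63 carried a title with the word kinase and were followed here across line, ethanol exposure and sex. Titles that began as expressed sequence tags were left out, as were titles of kinase inhibitors, kinase substrates, kinase anchoring proteins and a translation initiation factor kinase. The choice rests on the wording of the titles alone and used no measured value. Cdk2 and Hipk1 each have a pair of spots. Among the 63, 58 titles could be given a current mouse gene symbol, and the other 5 are called by their title.

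The mice came from lines bred for severe (WSP) or mild (WSR) convulsions during ethanol withdrawal, out of the genetically mixed HS/Ibg stock, with 2 replicate lines for each direction of selection. Adult, drug-naive females and males of both directions were kept for 72 h in ethanol vapor (EtOH) or in air (Air), and cortex was taken at 0 h of withdrawal. All mice, air controls included, received pyrazole at 68.1 mg/kg, which slows ethanol breakdown. A starting dose of ethanol was injected into EtOH mice, with WSP-2 given a higher dose than the 1.5 g/kg of WSP-1 and both WSR lines, so EtOH and line comparisons carry a dose difference in 1 of the WSP lines. The 8 groups are female and male, WSP and WSR, Air and EtOH. Each had 4 arrays, and each array was made from RNA of 2 adult mice (2.5 µg each) pooled and copied with 33P. Array names give the selection replicate and then the pool (1-2 is the second pool of the first replicate lines). The labels mark female WSR EtOH 2-1 as excluded, which leaves 31 arrays. A line difference rests on 2 bred populations per direction, and drift during breeding cannot be told apart from selection.

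Kinases transfer phosphate from ATP to proteins, lipids or small metabolites, and phosphatases remove it again. In cortical neurons, calcium entering at synapses activates calmodulin-dependent kinases, and MAP kinase cascades carry receptor signals to the nucleus. Kinase activity is set largely by phosphorylation and binding partners. The array reads the mRNA, not that activity. In bulk tissue, fewer cells of a type and less RNA per cell cannot be told apart.

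Arrays differed in how far spots rose above background. Each deposited file has 1 background reading for the whole array, from 8.25 to 41.1 on the 16 male arrays, from 10.3 to 283 on the 8 female WSP arrays and from 430 to 769 on the 7 female WSR arrays. On the log2 scale, the widest gap between readings put 2 female WSP arrays (Air 1-1 and EtOH 2-1) with all 7 female WSR arrays on its high side, above 139. The share of all spots above 2 times the reading was 5.93% to 11.5% in female WSR, 6.59% to 24.8% in female WSP and 12.5% to 19.0% in males, and 2 to 14 of the 63 kinases per array were above it. Sex, and in females line, therefore went together with the background reading. The listed neuronal markers were near background, with Syn1 above 2 times the reading on 0 of 31 arrays and Thy1 also on 0. The astrocyte enzyme Glul exceeded that ratio on 23 arrays, but the astrocyte marker Clu on 0 (median ratio 0.88). The choroid plexus transcript Ttr exceeded it on 30. The number of arrays limits the precision of each value below.

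Most kinase spots lay at the level of the background reading. On at least 16 of the 31 arrays, 7 of the 63 kinases exceeded 2 times the reading, or 11.1%, against 12.9% of all 5163 probes. Of these, 6 are described by name: Pnck on 31 arrays, Cks1b on 29, Srpk3 on 26, Hunk on 25, the serum/glucocorticoid regulated kinase-like spot (SGK-like) on 23 and Atr on 20. Below the 7, the next was the Ste20-like kinase with 4 arrays, so the threshold fell in a wide gap. Each of the 7 exceeded it on all 16 male arrays, so the male arrays alone were enough to choose them. At 1.5 or 3 times the reading the count was again 7. For 35 kinases no array reached 2 times the reading. A weaker criterion, any signal above the reading on at least 16 arrays, was met by 21 kinases and by 2031 of all probes. Lck, the Src-family kinase of T cells, was above the reading on 24 arrays, and the Janus kinase Tyk2 on 22.

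**Figure D1:**
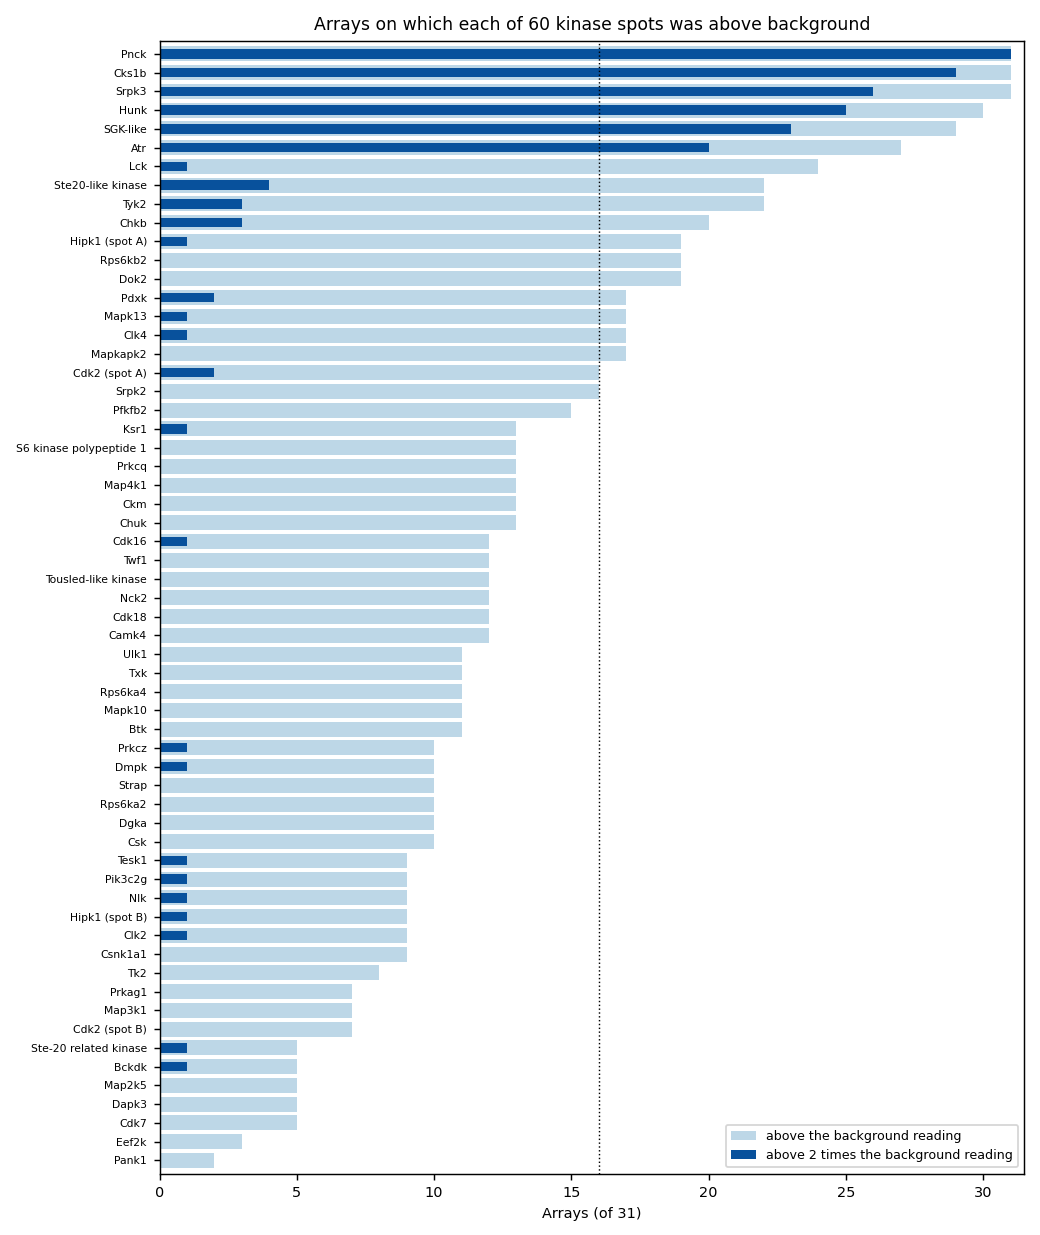
Number of arrays, of 31, on which each of 60 kinase spots was above the array's background reading (light bars) and above 2 times that reading (dark bars), with a dotted line at 16 arrays. The dark bars of 6 kinases pass 16 arrays (20 to 31), and the next kinase reaches 4.

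By class, the largest was the other serine/threonine kinases with 19 spots, of which 3 were bright, meaning above 2 times the reading on at least 16 arrays. The MAP kinase cascade and ribosomal S6 kinases had 11 spots and 0 bright. Of the 7 small-metabolite, nucleotide and sugar kinases and the 2 lipid kinases, 0 were bright. Among 6 cell cycle and DNA damage kinases 1 was bright (Atr), and among 5 second-messenger kinases 1 (Pnck). Of 7 proteins that carry kinase in their name without being catalytic, 1 was bright (Cks1b). No title named a receptor tyrosine kinase. Some kinases known from neurons were at background here: Mapk10 (JNK3, the neuronal JNK) had a median ratio of 0.93 and was above the reading on 11 arrays, and Camk4, a nuclear calmodulin-dependent kinase, had a median of 0.89 and was above it on 12. A spot near background is not thereby shown to be unexpressed.

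Pnck, a calcium/calmodulin-dependent kinase of the CaM kinase I family, was above 2 times the reading on every array used. Its signal over background ran from 31.7 to 88.3 in males (median 51.4, n = 16), from 3.93 to 83.0 in female WSP (median 18.8, n = 8) and from 4.28 to 14.4 in female WSR (median 7.72, n = 7). After normalisation the log2 intensity hardly followed these ratios. In female WSP it was 10.88, 10.63, 10.12 and 10.82 on the Air arrays 1-1, 1-2, 2-1 and 2-2, and 10.48, 10.84, 10.56 and 10.70 on the EtOH arrays in the same order. Female WSR gave 10.80, 10.56, 10.17 and 11.06 in Air, and 10.24, 10.84 and 10.92 on the EtOH arrays 1-1, 1-2 and 2-2. The 16 male values ran from 10.45 to 11.13. All groups overlapped, and Pnck passed no comparison.

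Srpk3, a kinase of SR splicing factors described as muscle-specific, had ratios of 11.3 to 24.5 in males, 1.38 to 37.9 in female WSP and 1.36 to 3.75 in female WSR. Its log2 intensity in female WSP was 9.19, 9.22, 9.44 and 9.25 in Air and 9.15, 9.46, 8.17 and 9.28 in EtOH. The female WSR values were 8.66, 9.21, 7.42 and 9.37 in Air and 8.78, 8.22 and 7.94 in EtOH. Males spanned 9.01 to 9.35, a range inside that of the females. Its relative Srpk2, which acts on the same kind of splicing factor and is known from brain, had a median ratio of 1.13 and was above 2 times the reading on 0 arrays. The Srpk3 spot lies beside a spot with a median ratio of 54.8, while the highest neighbour of the other bright kinases had a median ratio between 1.02 and 9.34. Whether signal spread from that neighbour was not tested.

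Cks1b is a small subunit that binds cyclin-dependent kinases and helps to turn over the cell cycle inhibitor p27. It had ratios of 10.9 to 30.0 in males, 1.76 to 38.1 in female WSP and 1.92 to 3.52 in female WSR. Its log2 intensity was 9.43, 9.31, 9.06 and 9.25 in female WSP Air and 9.26, 9.35, 8.80 and 9.13 in female WSP EtOH. In female WSR it was 8.88, 9.48, 7.94 and 9.22 in Air and 8.35, 10.10 and 8.93 in EtOH, a wider spread than in female WSP. Males spanned 9.09 to 9.71. The cyclin-dependent kinases themselves were dim, with Cdk2 (spot A) above 2 times the reading on 2 arrays, Cdk16 on 1 and Cdk7 and Cdk18 on 0.

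Hunk, a kinase related to the energy sensor AMPK and first described in mammary tissue, had ratios of 6.40 to 16.5 in males, 1.20 to 41.8 in female WSP and 0.904 to 2.08 in female WSR. Its log2 intensity in female WSP was 8.97, 8.99, 9.12 and 9.40 in Air and 8.64, 9.22, 7.78 and 9.29 in EtOH. Those of female WSR were 7.53, 9.36, 6.31 and 7.55 in Air and 8.01, 7.90 and 6.40 in EtOH. In female WSR 6 of 7 values fell below the 16 male values, which ran from 8.37 to 9.18, and female WSR Air 1-2 was above them.

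The SGK-like spot belongs to the family of kinases that act downstream of phosphoinositide 3-kinase and are known for glucocorticoid-regulated ion transport. Its ratio was 3.33 to 10.3 in males, 0.797 to 37.8 in female WSP and 0.727 to 2.91 in female WSR. The log2 intensity in female WSP was 7.90, 8.60, 8.24 and 9.23 in Air and 8.15, 8.50, 6.55 and 8.65 in EtOH. In female WSR it was 7.52, 7.54, 6.82 and 7.22 in Air and 8.67, 6.34 and 6.77 in EtOH. Males spanned 7.94 to 8.52. In Air the female lines did not overlap, and in EtOH female WSR 1-1 was above all 4 female WSP arrays.

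Atr, the checkpoint kinase that responds to stalled replication and single-stranded DNA, exceeded 2 times the reading on the fewest arrays of the 7. Its ratio was 2.61 to 6.32 in males, 0.937 to 17.0 in female WSP and 0.689 to 1.95 in female WSR, where no array reached 2. The log2 intensity in female WSP was 7.26, 8.15, 7.59 and 8.16 in Air and 7.35, 7.92, 7.09 and 8.03 in EtOH. The female WSR arrays gave 7.06, 5.25, 6.67 and 5.92 in Air and 7.88, 6.45 and 6.37 in EtOH. Males spanned 7.95 to 8.21. The 16 male values thus formed a narrow band, with all 7 female WSR values below it and female WSP values in and below it.

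**Figure D2:**
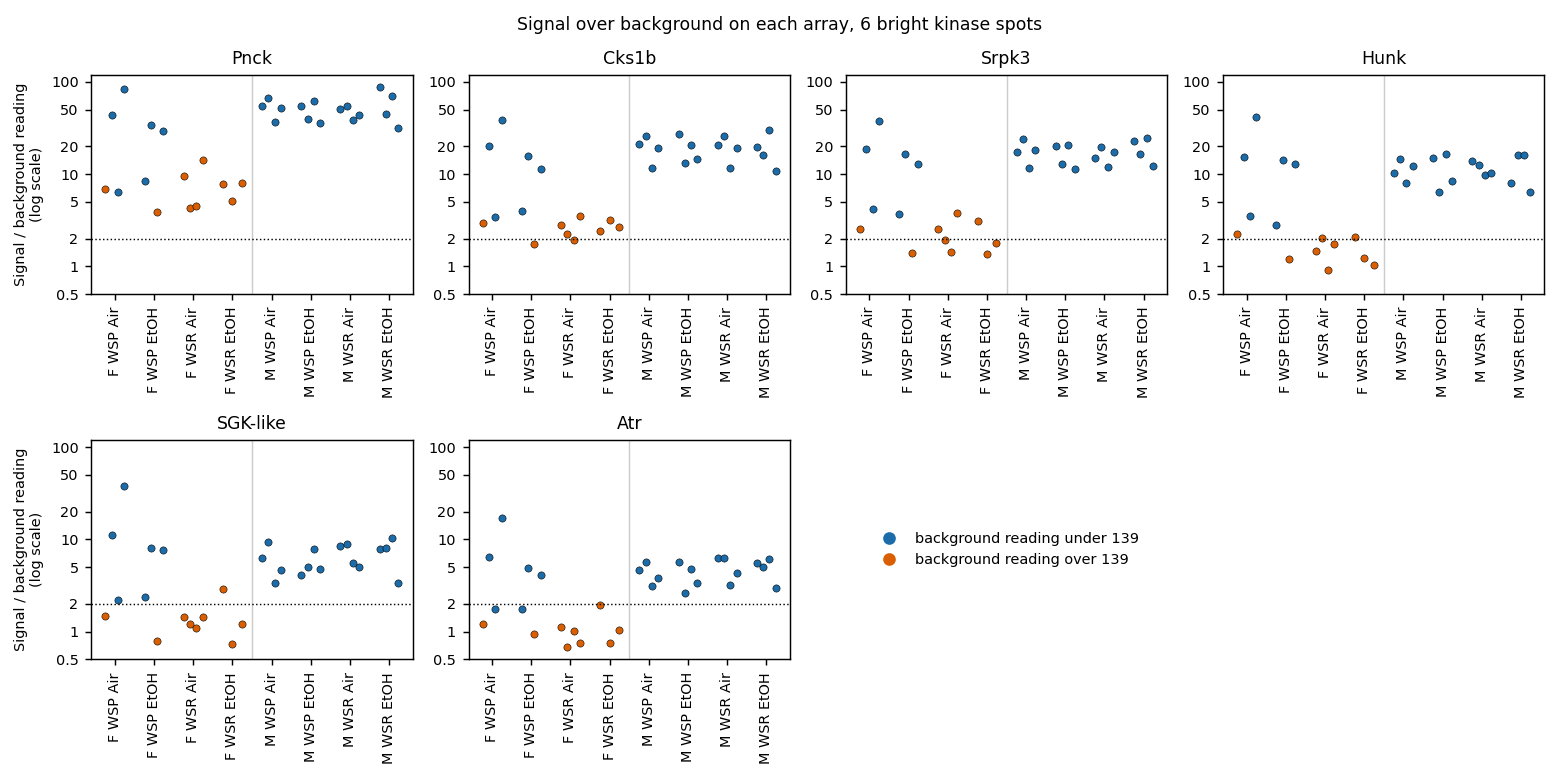
Signal divided by the array's background reading (log scale) for 6 bright kinases, 1 point per array, grouped by sex (F, M), line and treatment, coloured by whether the background reading was under or over 139; the dotted line marks a ratio of 2. Male arrays stay above 2 for all 6, while arrays of high background reading reach at most 3.75 for all but Pnck.

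The precision differed between the sexes. The median SD of the 7 bright kinases among arrays of 1 line and sex, on the log2 scale, was 0.14 in male WSP, 0.16 in male WSR, 0.42 in female WSP and 0.77 in female WSR. Within females it went with the background reading. Atr ran from 7.35 to 8.16 on the 6 female arrays of low reading and from 5.25 to 7.88 on the 9 of high reading. Hunk ran from 8.64 to 9.40 on the former and from 6.31 to 9.36 on the latter, and SGK-like from 8.15 to 9.23 and from 6.34 to 8.67. Pnck was alike on both, from 10.12 to 10.84 and from 10.17 to 11.06. A filter on dim spots, a mean log2 intensity above the 25th percentile, left 3872 probes for testing, with 49 of the 63 kinases and all 7 bright ones. The 14 untested kinases were 6 other serine/threonine kinases, 3 of the MAP kinase cascade, 2 cyclin-dependent kinase spots and 1 each of 3 further classes.

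The first question was which kinases differed after 72 h of ethanol vapor. Averaged over the 4 combinations of sex and line, 0 of 49 kinases passed an adjusted p of 0.05 in limma, and 0% of all probes did. At an unadjusted p under 0.05 there were 2 of 49 kinases, against 5.42% of all 3872 probes. The median difference of the kinases was -0.04 on the log2 scale, beside 0.01 for all probes, with 22 above and 27 below 0. Those 2 were Nck2 and Pik3c2g. Nck2, an SH2/SH3 adaptor that links receptor tyrosine kinases to actin, ran from 4.70 over a median of 5.96 to 7.50 in Air and from 4.34 over 5.32 to 7.36 in EtOH, a difference of -0.67 ± 0.25 (SE, adjusted p = 0.855, limma). Pik3c2g, a class II phosphoinositide 3-kinase, ran from 4.06 over 5.25 to 6.33 in Air and from 4.64 over 5.97 to 7.25 in EtOH, a difference of 0.69 ± 0.26 (adjusted p = 0.855). It was above the background reading on 8 of 15 EtOH and 1 of 16 Air arrays, and its ranges overlapped.

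The bright kinases, where the arrays measured best, gave small EtOH differences. They were 0.10 ± 0.17 for Atr, 0.00 ± 0.12 for Pnck, -0.01 ± 0.15 for Cks1b, -0.15 ± 0.21 for SGK-like, -0.16 ± 0.16 for Srpk3 and -0.18 ± 0.21 for Hunk, with adjusted p from 0.907 upward (limma, 15 EtOH and 16 Air arrays). A fit of the 16 male arrays alone, added after seeing the data, gave the narrowest limits. Its 95% intervals for EtOH against Air were 0.85 to 1.12-fold for Atr, 0.86 to 1.15-fold for Srpk3 and 0.83 to 1.19-fold for Pnck. For SGK-like the interval was 0.82 to 1.17-fold, for Hunk 0.80 to 1.17-fold and for Cks1b 0.79 to 1.12-fold. In males, changes of the mRNA larger than these bounds lay outside the intervals, while smaller ones were not detectable with 8 arrays a side. In that fit 1 of 49 kinases had an unadjusted p under 0.05, with 3.62% of all probes.

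**Figure D3:**
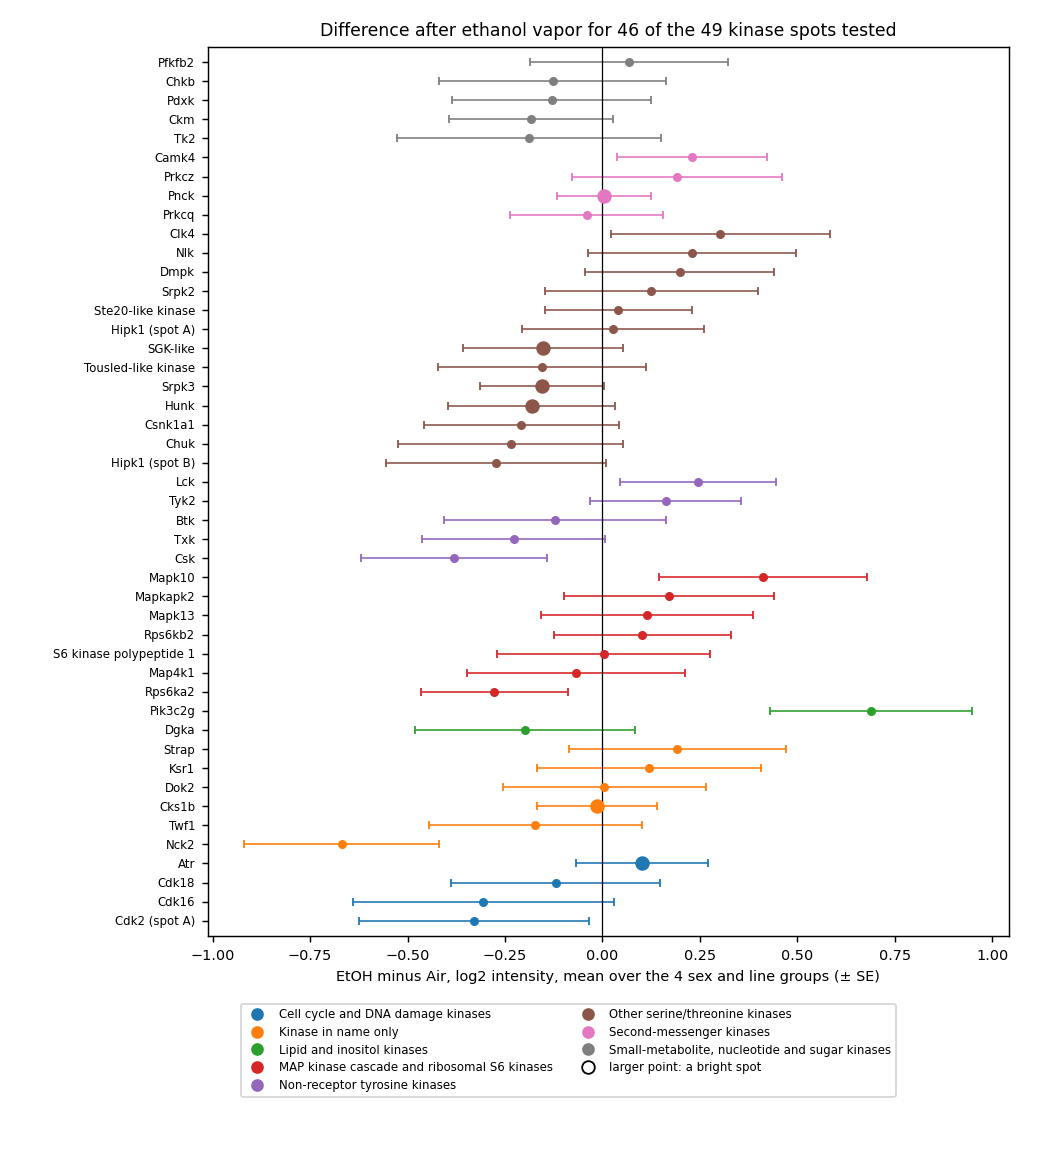
EtOH minus Air difference in log2 intensity, averaged over the 4 sex and line groups, with its SE from limma, for 46 of the 49 kinases tested, coloured by class; the bright kinases have larger points. Nck2 (-0.67) and Pik3c2g (0.69) lie at the ends and the bright kinases between -0.18 and 0.10.

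By class, the EtOH differences were mixed in sign and 0 members passed in any class. Of 8 MAP kinase cascade and S6 kinases 5 were above 0 and 3 below, with Mapk10 at 0.41 ± 0.27 (adjusted p = 0.855, limma). Rps6ka2, the ribosomal S6 kinase RSK3 that ERK activates, was at -0.28 ± 0.19. Among 6 tyrosine kinases 2 were above 0 and 4 below, with Lck at 0.25 ± 0.20 and Csk, which phosphorylates the inhibitory tail of Src kinases, at -0.38 ± 0.24. Of 6 metabolite kinases 1 was above 0, and muscle creatine kinase Ckm was at -0.18 ± 0.21. Of 4 second-messenger kinases 3 were above 0, with Camk4 at 0.23 ± 0.19 and the atypical protein kinase C Prkcz at 0.19 ± 0.27. Among 13 other serine/threonine kinases 6 were above 0, the highest being Clk4, which phosphorylates splicing factors, at 0.30 ± 0.28. Of 4 cell cycle kinases 1 was above 0, and Cdk2 (spot A) was at -0.33 ± 0.29 and Cdk16 at -0.31 ± 0.34. Diacylglycerol kinase Dgka, the other lipid kinase, was at -0.20 ± 0.28. Of 6 non-catalytic members 3 were above 0, with Strap at 0.19 ± 0.28 and the actin-binding twinfilin Twf1 at -0.17 ± 0.27.

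Within single groups of sex and line 0 kinases passed either (limma). In female WSP 3 kinases had an unadjusted p under 0.05, beside 3.82% of all probes, and 0% of probes passed after adjustment. Txk, a Tec-family kinase of T cells, read 4.81, 4.35, 5.74 and 5.16 in Air and 6.30, 5.81, 6.83 and 5.75 in EtOH, a difference of 1.16 ± 0.46 (adjusted p = 0.999). Its groups did not overlap, as for 2.27% of all probes, and 2 of the 49 kinases were so placed. The second was Nck2, at 5.67, 6.40, 5.91 and 5.94 in Air and 5.07, 5.32, 4.39 and 4.59 in EtOH. It was above the reading on 0 of 4 EtOH arrays, so its means of 5.98 and 4.84 are given with no fold (adjusted p = 0.999). Pik3c2g read 4.78, 4.30, 6.23 and 4.61 in Air and 6.14, 5.99, 6.18 and 5.82 in EtOH, overlapping through 1 Air array (1.05 ± 0.51, adjusted p = 0.999).

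In female WSR 6 kinases had an unadjusted p under 0.05, beside 13.8% of all probes; 0.155% of probes passed after adjustment (0.0775% higher, 0.0775% lower), and 0 of them were kinases. Txk read 6.34, 8.27, 6.30 and 5.72 in Air and 5.98, 5.18 and 4.61 in EtOH, with means of 6.65 and 5.26 (adjusted p = 0.206, limma). Rps6ka2 read 6.66, 5.10, 7.53 and 7.06 in Air and 5.45, 5.91 and 5.33 in EtOH, with means of 6.59 and 5.56 (adjusted p = 0.252). Both pairs of groups overlapped, and both kinases were above the reading on 0 of 3 EtOH arrays, so no fold is given. Without female WSR Air 1-2, Rps6ka2 was at least 1.26-fold lower in EtOH (adjusted p = 0.027), a bound because its EtOH arrays were all below the reading. In that fit 5 of 3872 probes were higher and 34 lower in EtOH. Leaving out female WSR EtOH 1-1 gave 1 other kinase past the threshold, higher in EtOH, with 67 probes higher and 23 lower. Camk4 was above the reading on no array of either side, at 5.02, 4.34, 5.98 and 5.60 in Air and 6.52, 6.59 and 5.64 in EtOH (adjusted p = 0.265). The B cell kinase Btk was the 1 kinase whose groups did not overlap, as for 7.36% of all probes.

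In males the differences were smaller still against the error of the fit, which shares its residual spread over both sexes. The median SD of the tested kinases was 0.53 in male WSP and 0.53 in male WSR, against 0.70 in female WSP and 0.83 in female WSR. The shared error is therefore wide for males. In male WSP 0 kinases had an unadjusted p under 0.05, beside 0.93% of all probes, and in male WSR 0, beside 0.878%; 0% passed after adjustment in both. The smallest p in male WSP belonged to Ckm, which read 5.70, 6.26, 6.59 and 6.39 in Air and 5.13, 5.65, 5.75 and 5.41 in EtOH (-0.75 ± 0.41, adjusted p = 1.00, limma). Pik3c2g read 4.06, 4.72, 5.81 and 5.28 in Air, below the reading on all 4, and 5.49, 5.57, 6.08 and 5.84 in EtOH. Clk4 read 4.54, 5.36, 5.48 and 6.59 in Air and 6.53, 6.10, 6.33 and 5.92 in EtOH (0.72 ± 0.55). Each pair of groups overlapped. In male WSR Csk read 6.07, 6.20, 5.71 and 5.49 in Air and 4.77, 4.84, 5.16 and 5.32 in EtOH. Its EtOH arrays were all below the reading, so the mean of Csk was at least 1.14-fold lower in EtOH, a difference short of the threshold (adjusted p = 1.00). These groups did not overlap, as for 1.78% of all probes; Csk and Rps6ka2 were the 2 such kinases. Pfkfb2, which makes the glycolytic regulator fructose bisphosphate, read 5.77, 5.16, 4.76 and 4.80 in Air and 5.70, 6.27, 5.43 and 6.65 in EtOH (0.89 ± 0.50).

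Whether the ethanol response depended on line or sex was tested as a difference of differences. The response of WSP minus that of WSR passed for 0 of 49 kinases and 0% of probes, with 4 kinases at an unadjusted p under 0.05 against 5.09% of probes (limma). Txk gave 1.46 ± 0.47 (adjusted p = 0.667), Csk 1.09 ± 0.48 and Rps6ka2 0.87 ± 0.38 (adjusted p = 0.95 for both). The response of females minus that of males also passed for 0 kinases and 0% of probes, with 1 kinase at an unadjusted p under 0.05 against 3.95% of probes. Hipk1 (spot A), a nuclear kinase that binds homeodomain proteins, gave -1.05 ± 0.47, but Hipk1 (spot B) gave 0.05 ± 0.57. Csnk1a1, a casein kinase of the Wnt pathway, gave -0.99 ± 0.50 and Btk -1.03 ± 0.57 (adjusted p = 0.996 for these and Hipk1 spot A).

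The next question was how WSP and WSR differed over Air and EtOH together. In females 2 of 49 kinases were higher in WSP and 0 lower, beside 4.67% of all probes called in either direction (3.90% higher, 0.775% lower). At an unadjusted p under 0.05 there were 7, beside 20.5% of probes. The 2 were Hunk and Atr. The 7 bright kinases had a median difference of 0.66, beside 0.13 for the 49 kinases and 0.09 for all probes tested. A median over all bright probes was not taken. The marker spots bright by the same threshold also lay above 0. They were Glul at 0.74, the choroid plexus transcripts Ttr at 0.60 and Enpp2 at 0.41, and the bright spot of alpha globin (Hba) at 0.49. Hunk ran from 7.78 over a median of 9.05 to 9.40 in female WSP (n = 8) and from 6.31 over 7.55 to 9.36 in female WSR (n = 7), a difference of 1.36 ± 0.31 (SE, adjusted p = 0.010, limma). Atr ran from 7.09 over 7.76 to 8.16 and from 5.25 over 6.45 to 7.88, a difference of 1.13 ± 0.24 (adjusted p = 0.007). SGK-like ran from 6.55 over 8.37 to 9.23 and from 6.34 over 7.22 to 8.67, and its 0.96 ± 0.30 did not pass (adjusted p = 0.058). All 3 pairs of groups overlapped, and all 8 female WSP values of Hunk and Atr lay above the female WSR mean.

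The calls of Hunk and Atr were lost under several alternatives. The fit shares 1 residual spread over both sexes, and with female arrays alone Hunk and Atr kept their differences at an adjusted p of 0.201 each. All female WSR arrays were of high background reading, and 6 of 8 female WSP arrays were of low reading. With the class of background reading as a term, the differences were 0.81 ± 0.47 for Hunk (adjusted p = 0.567), 0.61 ± 0.36 for Atr (adjusted p = 0.585) and -0.04 ± 0.39 for SGK-like (adjusted p = 0.99). That term leaves the comparison of high-reading arrays, 2 WSP against 7 WSR, so a fit of those arrays alone gave the same differences by construction, with SE of 0.77, 0.61 and 0.61. For the female lines as a whole, line and background reading cannot be told apart. No such comparison was possible among low-reading female arrays, which hold no WSR array. Cyclic loess in place of quantile normalisation gave 0.94 ± 0.25 for Hunk (adjusted p = 0.061) and 0.46 ± 0.19 for Atr (adjusted p = 0.205), and moved the share of higher among all probe calls from 83.4% to 28.2%. Among the cell type markers, Glul was higher in female WSP, at 0.74 (adjusted p = 0.0498), and its part in the kinase differences was not tested. In the lines of selection replicate 1 Hunk differed by 0.75 and Atr by 1.01, and in those of selection replicate 2 by 2.23 and 1.39, with 0 kinases past the threshold in either. Leaving out female WSP Air 1-1, female WSP EtOH 2-1 or female WSR EtOH 1-1 raised the count of kinases from 2 to 4. Without the first array 3 were higher and 1 lower in WSP, and without either of the others all 4 were higher. Calls among all 3872 probes rose too, from 151 higher and 30 lower to 243 and 72, 213 and 41, and 228 and 91. SGK-like then had an adjusted p of 0.032, 0.006 and 0.003 (limma). Without female WSP Air 2-1, SGK-like had an adjusted p of 0.0499.

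**Figure D4:**
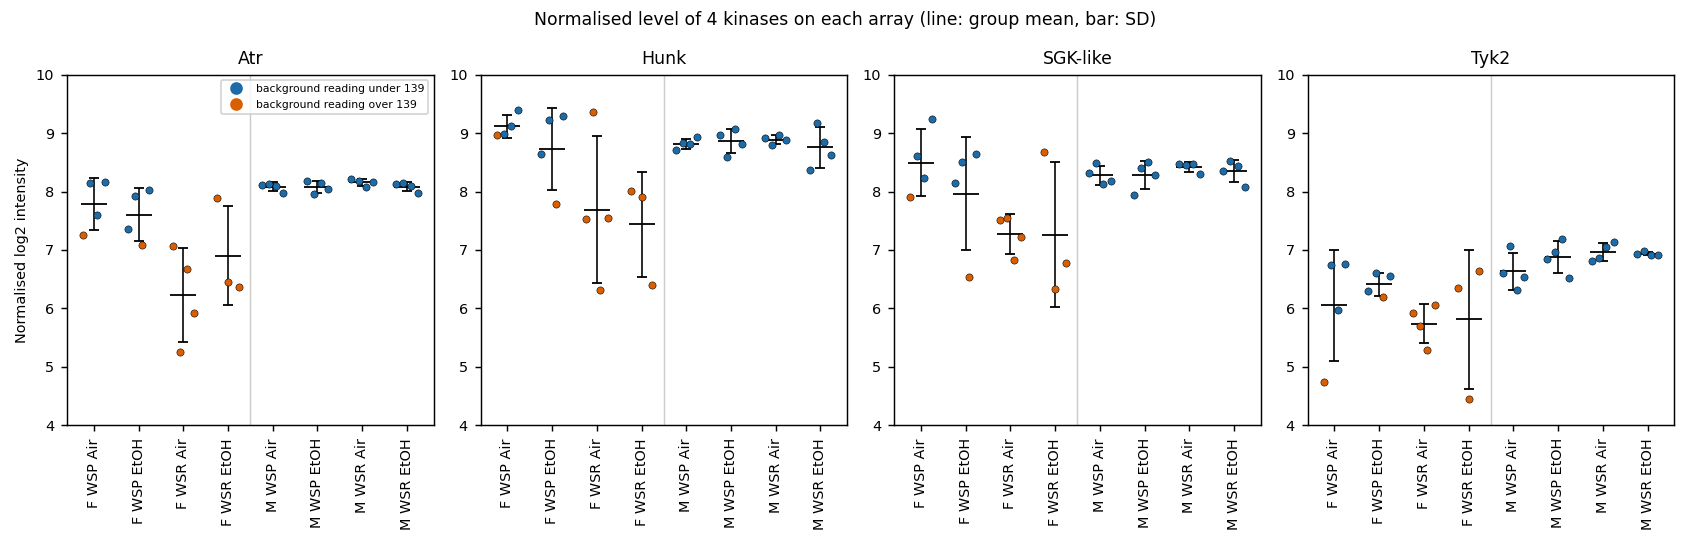
Normalised log2 intensity of Atr, Hunk, SGK-like and Tyk2 on each array by group (F female, M male), with the group mean (line) and SD (bar) and the points coloured by background reading under or over 139. The male arrays form narrow bands, and the low female values belong mostly to arrays of high background reading.

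In Air alone, 1 of 49 female kinases was higher and 1 lower, beside 2.76% of probes (2.04% higher, 0.723% lower, limma); 5 kinases had an unadjusted p under 0.05, beside 17.8%. The share of higher among the probe calls, 73.8%, was 25% with cyclic loess, 27.3% with the authors' deposited table and 89.8% with median scaling. Atr was 1.57 ± 0.33 higher in WSP (adjusted p = 0.012), with all 4 WSP arrays above all 4 WSR arrays; such separation held for 5.35% of probes and for 2 kinases, Atr and SGK-like. Without female WSP Air 1-2 its adjusted p was 0.053, and without female WSP Air 2-2 it was 0.060. Txk was lower in WSP, at -1.64 ± 0.46 (adjusted p = 0.047), at the values given above, and was above the reading on 1 array of each side. It lost its call when any 1 of 5 arrays was left out (adjusted p 0.0525 to 0.186), and with female Air arrays alone neither kinase passed (0.409 for Atr, 0.462 for Txk). Hunk differed by 1.43 ± 0.42 and did not pass (adjusted p = 0.060), but did without female WSR Air 1-2 (2.06, adjusted p = 0.003).

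In males no kinase separated the lines. The count past the threshold was 0 of 49 (limma), with 0% of all probes, and 2 kinases had an unadjusted p under 0.05 against 5.76% of probes. That fit shares its residual spread with the female arrays. In the fit of male arrays alone, 2 kinases and 12.1% of probes had an unadjusted p under 0.05. There 0 probes passed, with the smallest adjusted p at 0.131 over all probes and 0.244 among kinases (limma). The Ste20-like kinase, a relative of the yeast kinase that starts a MAP kinase cascade, ran from 5.75 over a median of 6.64 to 7.07 in male WSP and from 6.52 over 7.19 to 7.68 in male WSR (-0.62 ± 0.26, adjusted p = 0.782). Twf1 ran from 5.19 over 5.92 to 7.49 and from 4.02 over 5.35 to 6.27 (0.82 ± 0.38, adjusted p = 0.824). Hipk1 gave 0.45 ± 0.32 at spot A and -0.25 ± 0.39 at spot B. In Air alone the male count was again 0, with 0% of probes past the threshold and 2.14% at an unadjusted p under 0.05. Csk read 4.55, 4.77, 5.04 and 5.39 in male WSP Air, all below the reading and below the 4 male WSR Air values given above. Its mean was thus at least 1.02-fold lower in WSP, a difference short of the threshold (adjusted p = 0.999). Csk and Rps6ka2 were the 2 kinases without overlap there, beside 3.49% of probes. Pfkfb2 at 0.81 ± 0.50 and the Ste20-like kinase at -0.53 ± 0.37 overlapped. For the bright kinases, the fit of male arrays alone gave 95% intervals for WSP against WSR of 0.84 to 1.12-fold for Atr, 0.84 to 1.22-fold for Hunk and 0.78 to 1.11-fold for SGK-like. Those for Srpk3, Pnck and Cks1b lay between 0.85 and 1.24-fold.

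The female and male line differences were then compared directly. The difference between them passed for 0 of 49 kinases, beside 0.723% of probes (0.697% higher, 0.0258% lower), with 6 kinases at an unadjusted p under 0.05 against 14.3% of probes (limma). It was 1.17 ± 0.34 for Atr (adjusted p = 0.099), 1.34 ± 0.43 for Hunk (adjusted p = 0.149) and 1.00 ± 0.38 for the Ste20-like kinase (adjusted p = 0.224). So the line difference of Hunk and Atr in females was not shown to differ from that in males. Without female WSR EtOH 1-1 the term for Atr had an adjusted p of 0.018, and without female WSR Air 1-1 of 0.047. Without female WSR Air 1-2 that for Hunk was 0.038.

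**Figure D5:**
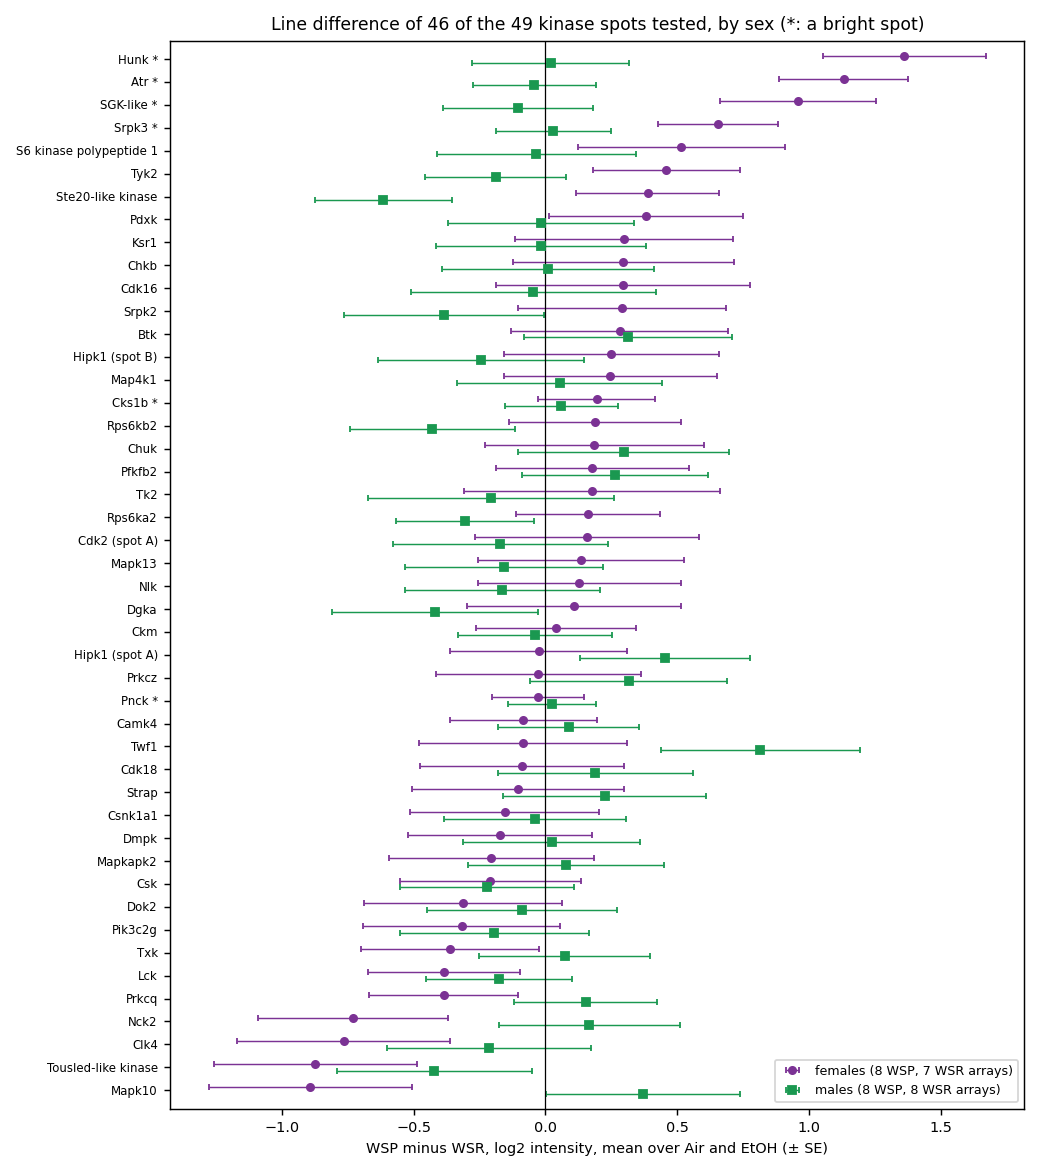
WSP minus WSR difference in log2 intensity over Air and EtOH, with its SE from limma, for 46 of the 49 kinases tested in females (circles) and males (squares), ordered by the female difference; stars mark the bright kinases. Hunk (1.36) and Atr (1.13) head the female list, and the bright kinases lie between -0.10 and 0.06 in males.

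Between the sexes, over line and treatment, 1 of 49 kinases was higher in females and 5 were lower, beside 26.4% of all probes called (6.84% higher, 19.5% lower). At an unadjusted p under 0.05 there were 13, beside 38.3%. The median difference was 0.04 for the 49 kinases and -0.06 for all probes tested. Since the male arrays alone met the threshold for bright kinases, no count or median over those is given here; Pnck was at -0.17. Atr ran from 5.25 over 7.26 to 8.16 in females (n = 15) and from 7.95 over 8.12 to 8.21 in males (n = 16), a difference of -0.97 ± 0.17 (adjusted p = 1.5e-04, limma). Tyk2, a Janus kinase of cytokine receptors, ran from 4.46 over 6.20 to 6.76 and from 6.32 over 6.92 to 7.18 (-0.85 ± 0.19, adjusted p = 0.002). It was above the reading on all 16 male and 6 of 15 female arrays. Hunk (-0.59 ± 0.21, adjusted p = 0.043) and SGK-like (-0.58 ± 0.21, adjusted p = 0.034) passed narrowly; leaving out any 1 of 22 arrays ended the call for Hunk (adjusted p to 0.099), and any 1 of 8 that for SGK-like (to 0.082). Rps6ka2 was higher in females, with 5.10 over 6.04 to 7.53 against 4.34 over 5.53 to 5.89 (0.72 ± 0.19, adjusted p = 0.006), and was above the reading on 8 of 15 female and 2 of 16 male arrays. In all 6 the sexes overlapped, and 5 of the 6 are described here. Cyclic loess left 3 kinases past the threshold, with SGK-like at 0.19 and Atr at -0.14, and moved the share of higher among all probe calls from 26.0% to 54.8%.

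The background reading moved with sex, and within WSP the comparison could be made at low readings. Between 6 female and 8 male WSP arrays of low reading, Atr differed by -0.21 ± 0.17 (adjusted p = 0.486) and Tyk2 by -0.27 ± 0.19 (adjusted p = 0.427). Hunk at 0.27 ± 0.16 and SGK-like at 0.28 ± 0.19 had the opposite sign, also short of the threshold. Of the 49 kinases 1 was higher in females there and 0 lower, beside 3.56% of probes (1.01% higher, 2.56% lower). It was Rps6ka2, which was above the reading on 6 of 6 female and 0 of 8 male arrays and so was at least 1.44-fold higher in females (adjusted p = 0.031, limma). With all WSP arrays 1 kinase was higher and 1 lower, beside 5.45% of probes (1.73% higher, 3.72% lower). Rps6ka2 was then at least 1.33-fold higher (adjusted p = 0.028), and Prkcq, the protein kinase C theta of T cells, was at -0.72 ± 0.18 (adjusted p = 0.027), above the reading on 3 of 8 female and 6 of 8 male arrays. Of 11 tested markers 0 were higher in females over all arrays and 4 lower, beside 6.84% and 19.5% of all probes. The 4 were Glul, Syn1, Thy1 and Enpp2, at -0.56, -0.59, -0.57 and -0.54, with adjusted p from 0.001 to 0.039 (limma). Ttr at -0.21 did not pass. The T cell coreceptor Cd4, a marker added after values were seen, was at 0.77 (adjusted p = 0.062). The part of cell composition in these differences was not tested.

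The related titles were few. Of 15 phosphatase titles 12 were tested, and 0 passed for EtOH or line. Between the sexes 2 were higher and 1 lower in females, beside 26.4% of all probes called (6.84% higher, 19.5% lower). Of 9 kinase titles left out by the wording rule 5 were tested and 0 passed in any comparison. Among these the spot for Pacsin2, a membrane-bending substrate of protein kinase C and casein kinase, was above 2 times the reading on all 31 arrays and differed by -0.06 ± 0.11 after EtOH. The repeat spots did not give matching values: those of Hipk1 had opposite signs for EtOH in males, 0.52 ± 0.46 and -0.27 ± 0.55 in WSP and 0.58 ± 0.46 and -0.33 ± 0.55 in WSR, none past the threshold (adjusted p = 1.00 for all 4, limma). In the fit of male arrays alone spot A was at 0.55 ± 0.21, the 1 kinase with an unadjusted p under 0.05 there (0.020, adjusted p = 1.00), and spot B at -0.30 ± 0.25. Cdk2 (spot A) was above the reading on 16 arrays and Cdk2 (spot B), too dim to be tested, on 7.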

How the data were processed

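Each deposited file holds, per the file headers, a linear intensity for each spot (Signal) and 1 Background reading per array. The labels state RNA pooling and 33P labelling; the quantification software is not given in the sources used here. The authors' deposited value table, a score, equals 2 times the z-score of log2 Signal over all spots of an array plus 8. It is filled where Signal exceeds Background, with few exceptions. Of 2334 filled spots on female WSP Air 2-1, 2303 were above Background, and of 2654 on female WSP EtOH 1-1, 2652. On female WSR EtOH 2-1, 8 spots above Background were not filled. The deposited table served as an alternative. Its centring and scale were found by setting each column against that array's Signal (r = 1).

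From the 5355 spots, background was corrected with normexp (limma 3.58.1, R 4.3.3) on Signal, with an offset of 50 where the array's median was at least 500 and 0.1 of the median otherwise. The 192 genomic DNA control spots were then dropped, arrays quantile normalised and log2 taken. Probes above the 25th percentile of mean log2 were fitted with limma (1 mean per group, 8 groups, 23 residual degrees of freedom, empirical Bayes, Benjamini-Hochberg over 3872 probes, threshold 0.05). The script was tested on simulated data. Selection replicates were collapsed, following the design text, with no covariate. A kinase above the background reading on no array of 1 side gets a lower bound on its fold, or none where that bound is under 1.

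Named were the bright kinases, those past the threshold in each comparison (or the 3 smallest p where fewer than 3 passed), and up to 2 per class for EtOH. Outside that rule, after values were seen, came names beside detection counts and beside groups that do not overlap, Srpk2, Pacsin2 and Prkcq. Some genes within the rule are not reported here. The members, classes and lists were chosen with earlier results of these data known. Gene symbols were assigned from the titles by hand. Same-numbered arrays of Air and EtOH did not deviate together (median r = 0.02, from -0.17 to 0.20, 15 pairs; other numbers -0.02, 45 pairs), so replicate numbers were not taken as pairs. Each array is its own pool of mice, and p-values reflect the variation among pools. The header of the female WSP EtOH 1-2 file carries a name ending in pool 1; the deposited record was followed. cDNA sequences of the spots were not used here. Alternatives tried are given in the closing section.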

Additional observations from a re-analysis of the deposited data

Results flagged for a closer look

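Among 10 kinases (the 7 bright ones, Tyk2, Rps6ka2 and Txk) in the 7 groups of 4 arrays, 5 of 70 sets held 1 array that stood apart from the other 3 by Dixon's test at 95%, where chance gives about 1 in 20. Cks1b read 9.18 on male WSP Air 2-1 with the others at 9.40 to 9.43, and 9.51 on male WSR EtOH 2-1 with the others at 9.09 to 9.15. SGK-like read 8.30 on male WSR Air 2-2 with the others at 8.45 to 8.47. Rps6ka2 read 5.88 on female WSP EtOH 2-1, an array of high background reading, with the others at 6.55 to 6.65. Txk read 6.16 on male WSP EtOH 1-2 with the others at 5.14 to 5.29.

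The array that the labels exclude, female WSR EtOH 2-1, held signal above that of every female WSR Air array for 2 bright kinases when normalised with the rest. SGK-like read 8.44 there, against 6.88 to 7.58 in Air, and Atr 7.51, against 5.33 to 7.11. Both values lay within the range of the other female WSR EtOH arrays, 6.40 to 8.72 for SGK-like and 6.44 to 7.92 for Atr.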

How the results depend on the processing

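For the ethanol comparisons the count of kinases past the threshold was 0 under every alternative tried, except for female WSR with 1 array left out (0 to 1). The 7 bright kinases were the same count under both other detection thresholds. Of 463 recomputed values of the 14 main results 423 stayed alike and 40 moved. Alike allows a moderate change of a count and includes counts of 0 that stayed 0. Between the sexes, 4 to 9 kinases with arrays left out were taken as alike to the 6 reported. Of 1403 values for 42 single kinase results 1275 stayed alike, 93 lost and 26 gained a call and 9 changed sign.

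For the female line difference (2 kinases), the count was 0 with cyclic loess, with the arrays compared alone, with background class as a term and in either selection replicate alone. It was 4 with median scaling and 5 with array quality weights. Among alternatives chosen after seeing the data, it was 6 with z-scores of each array and 0 with the log2 background reading as a covariate or with arrays of high background reading alone, which gives the same differences as the class term by construction. Left-out arrays gave 2 to 4. In Air (2 kinases) it was 0 with cyclic loess, the arrays compared alone, background class, the authors' deposited value table, the log2 background covariate and either selection replicate alone, 1 without the dim filter, 6 with median scaling and 5 with array weights. Left-out arrays gave 0 to 2. A replicate block, by selection replicate or by selection replicate and pool, gave 1, since Txk at -1.64 had an adjusted p of 0.0540 and 0.0587; it changed no other call. For the difference of line differences (0 kinases) array weights gave 5, the authors' deposited values 4 and left-out arrays 0 to 2. Between the sexes (6 kinases) cyclic loess gave 3, background class and the log2 background covariate 0, low-background WSP arrays 1 and left-out arrays 4 to 9.

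SGK-like changed sign in the female line difference to -0.044 with background class and with high-background arrays alone, and between the sexes to 0.19 with cyclic loess, 0.25 with background class, 0.22 with the covariate and 0.28 in low-background WSP arrays. Between the sexes Tyk2 turned to 0.31 with the covariate and Hunk to 0.27 in low-background WSP arrays. The Ste20-like kinase in male Air turned to 0.045 in selection replicate 1. Z-scores split the female line calls of all probes 286 to 160, and those in Air, 79 to 28, were 344 to 39 with median scaling, 5 to 15 with cyclic loess and 3 to 8 with the authors' deposited table. The authors' deposited table moved the share of higher calls between the sexes from 26.0% to 11.0%. Over cyclic loess, median scaling, z-scores and the deposited table, the median of all probes ran from -0.82 to 0.10 between the sexes (-0.06 as reported), from -0.39 to 0.26 in female Air (0.10), from -0.04 to 0.65 for the female lines (0.09) and from -0.04 to 0.73 for the difference of line differences (0.12), with the deposited table at -0.82, -0.39, 0.65 and 0.73. The causes were not tested, except that fewer arrays enter where groups were left out.

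Signal over background limits the values: 35 kinases were never above 2 times the reading, and in female WSR even bright kinases lay close to it. The 3 to 8 arrays a side within a sex limit them too.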

Other observations

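Srpk3, known chiefly from muscle, was above 2 times the reading on 26 arrays, but muscle creatine kinase Ckm was above it on 0. Mapk10 and Camk4, known from neurons, stayed at background, while Pnck, also a calmodulin-dependent kinase, was above 2 times the reading on all 31. Repeat spots of another transcript disagreed in level: alpha globin (Hba) was above 2 times the reading on all 31 arrays at 1 spot (median ratio 26.8) and on 0 at the other (median 0.86). What the bright spots bind was not tested, since the cDNA sequences were not used here.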
